A study of Arabidopsis thaliana with 12 samples.

Results

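The genes described here are 10 ERF (ethylene response factor) transcription factor genes of Arabidopsis thaliana, ERF1A (AT4G17500), ERF2 (AT5G47220), ERF5 (AT5G47230), ERF6 (AT4G17490), ERF8 (AT1G53170), ERF9 (AT5G44210), ERF11 (AT1G28370), ERF59 (AT1G06160), ERF98 (AT3G23230) and RAP2.6L (AT5G13330). They were chosen by gene identifier as ERF factors of the osmotic growth network and are 10 of the 28642 genes in the deposited tables. The study sampled the first leaf pair (leaves 1 and 2), labelled as proliferating, 10 days after stratification. It had 4 groups of 3 biological replicates, 12 samples in all: seedlings on medium with 25 mM mannitol, with 0.1 µM NAA, with both compounds, and on control medium without either. All groups grew on the same half-strength Murashige and Skoog medium, and the labels give no ecotype or genotype. Mannitol is a sugar alcohol that lowers the water potential of the medium, and NAA (1-naphthaleneacetic acid) is a synthetic auxin.

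What could be used for these genes was 1 p-value for each of 3 comparisons, mannitol, NAA, or both compounds against control, as the authors list them. The file headers call these values detection p-values and name a pair of groups for each. They are read here as tests of a difference between the 2 groups named, a reading that the labels do not state. The 24 columns of counts or normalized values of single libraries carry running numbers that match no sample label, so the level in each library, the depth, the replicate spread, the fold change and the direction of a difference are not analysed here. The labelled tissue could not be checked against its marker genes for the same reason. The sources used here do not say which test gave the p-values or whether they were already adjusted. They were adjusted here over all 28642 genes by the Benjamini-Hochberg method, and a gene is said to pass at an adjusted p under 0.05. How far the p-values allow for a spread taken from 3 replicates per group is unknown. The true share of false passes is therefore unknown too. The comparisons share the control libraries, so passing in more than one of them is not independent evidence.

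ERF proteins carry an AP2/ERF DNA-binding domain and many bind the GCC box, a short element of promoters that answer to ethylene. Some activate their target genes. Others carry the EAR (ERF-associated amphiphilic repression) motif and repress them. In growing Arabidopsis leaves under mild osmotic stress, ERF5 and ERF6 act downstream of ethylene and of the kinases MPK3 and MPK6. ERF6 activates GA2OX6, which encodes an enzyme that inactivates gibberellin, and this stabilizes the growth-restraining DELLA proteins. ERF11 is known to counteract ERF6 in this network, and ERF8 is a repressor.

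The upstream sequences of the members are shown here for the 4 genes that passed under mannitol and the 2 that passed under NAA, so that their letters can be set beside those values. They were picked after the p-values had been seen. Each is the 250 bases before the annotated gene start, from RefSeq's TAIR10.1 assembly, written along the gene's strand. Capitals mark the letters of a searched motif on either strand.
ERF5, chr5:19179631-19179880, plus strand: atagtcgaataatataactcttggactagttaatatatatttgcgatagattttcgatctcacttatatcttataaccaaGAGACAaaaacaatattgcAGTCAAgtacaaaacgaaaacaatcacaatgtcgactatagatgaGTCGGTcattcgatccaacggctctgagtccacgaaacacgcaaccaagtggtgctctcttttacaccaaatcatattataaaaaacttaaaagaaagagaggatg
ERF59, chr1:1882657-1882906, plus strand: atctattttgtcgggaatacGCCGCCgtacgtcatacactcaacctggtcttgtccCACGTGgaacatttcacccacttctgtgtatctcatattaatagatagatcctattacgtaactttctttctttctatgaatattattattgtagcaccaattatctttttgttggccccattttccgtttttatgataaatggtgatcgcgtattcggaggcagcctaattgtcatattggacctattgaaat
ERF98, chr3:8290165-8290414, minus strand: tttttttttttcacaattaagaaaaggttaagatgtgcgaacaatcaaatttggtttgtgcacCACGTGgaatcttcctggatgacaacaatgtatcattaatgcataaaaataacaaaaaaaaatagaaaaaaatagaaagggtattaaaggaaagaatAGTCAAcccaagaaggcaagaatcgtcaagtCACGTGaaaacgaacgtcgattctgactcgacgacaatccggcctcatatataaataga
RAP2.6L, chr5:4271480-4271729, plus strand: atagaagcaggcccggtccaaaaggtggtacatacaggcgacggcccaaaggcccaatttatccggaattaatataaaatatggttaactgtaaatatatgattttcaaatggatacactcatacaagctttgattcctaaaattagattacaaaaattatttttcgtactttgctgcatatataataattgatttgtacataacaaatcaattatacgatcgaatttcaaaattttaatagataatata
ERF1A, chr4:9758953-9759202, plus strand: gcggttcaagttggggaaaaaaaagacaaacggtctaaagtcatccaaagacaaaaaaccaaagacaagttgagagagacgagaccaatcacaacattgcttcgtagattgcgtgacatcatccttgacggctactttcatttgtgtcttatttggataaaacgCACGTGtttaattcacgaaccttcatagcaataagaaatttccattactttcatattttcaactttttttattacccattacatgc
ERF2, chr5:19172957-19173206, minus strand: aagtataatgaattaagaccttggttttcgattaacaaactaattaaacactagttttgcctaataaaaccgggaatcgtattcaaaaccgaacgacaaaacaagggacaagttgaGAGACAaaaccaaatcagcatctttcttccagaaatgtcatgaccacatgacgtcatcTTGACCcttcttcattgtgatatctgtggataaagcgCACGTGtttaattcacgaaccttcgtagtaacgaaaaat

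The motifs searched, on both strands, were GCCGCC (the GCC box core), TTGACC and TTGACT (W boxes, bound by WRKY factors), CACGTG (the G box), TGTCTC (the auxin response element) and ACCGAC (the dehydration-responsive element core). None of the matches overlaps another. The G box was found in 4 of 10 members, ERF1A, ERF2, ERF59 and ERF98, against 6.49% of the 27443 promoters of protein-coding genes with the same length. ERF98 holds it at 2 places, 187 and 59 bases before the gene start. The GCC box core was found in ERF11 and ERF59, 2 of 10 members, against 1.87% of all promoters. The W box TTGACT stood in ERF5, ERF11 and ERF98 (19.1% of all promoters) and TTGACC in ERF2 (12.2%). The auxin response element stood in ERF2, ERF5 and ERF11 (10.9% of all promoters), and the dehydration element in ERF5 (4.7%). ERF6, ERF8, ERF9 and RAP2.6L hold none of these letters in this window. A match is a description of letters and not a binding site.

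**Figure D1:**
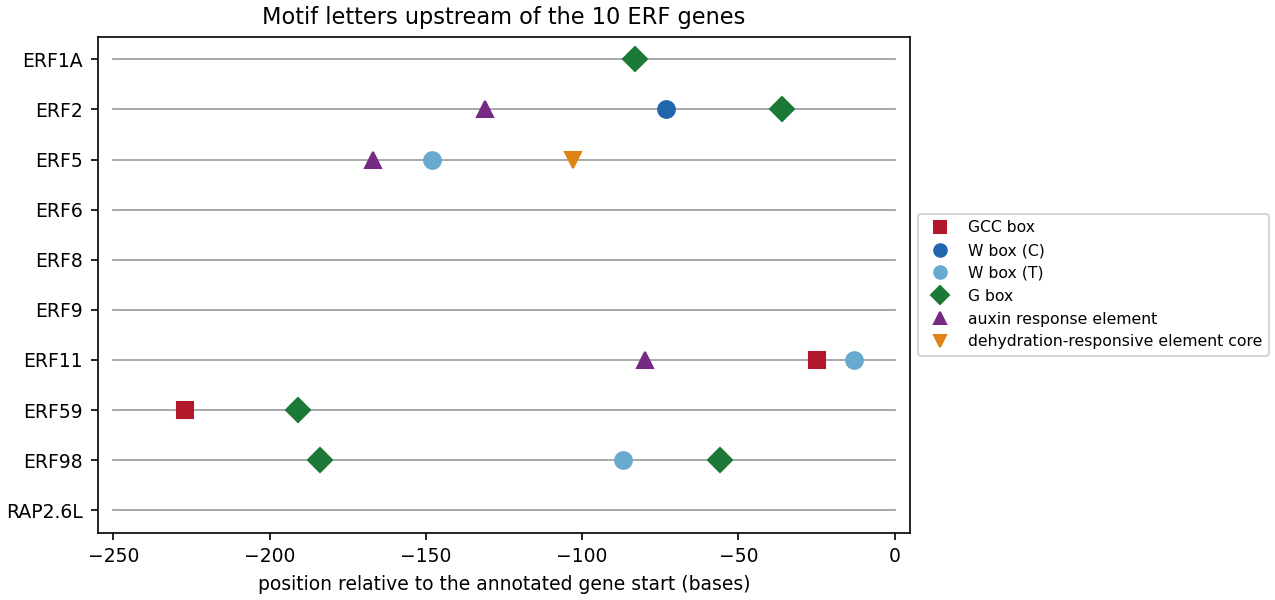
Matches of 6 motifs (markers) in the 250 bases before the annotated start of each of the 10 ERF genes (rows), with the position relative to the gene start on the horizontal axis in bases. The W box (C) is TTGACC and the W box (T) is TTGACT. Rows of ERF6, ERF8, ERF9 and RAP2.6L are empty, and ERF98 shows 2 G boxes.

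ERF1A and ERF2 share a run of 26 bases around the G box, which is shown because it was the longest shared run among all pairs of member promoters.
ERF1A and ERF2, shared run with the G box in capitals: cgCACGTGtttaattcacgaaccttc
It starts 88 bases before the ERF1A start and 41 bases before the ERF2 start. The next longest shared run, of 17 bases between ERF9 and ERF11, was almost all adenine.

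The members sit in related places in the genome (TAIR10.1). ERF6 (chr4:9752824-9754161, minus strand) and ERF1A (chr4:9759203-9760391, plus strand) are divergent neighbours 5041 bases apart with no protein-coding gene between them. ERF2 (chr5:19171643-19172956, minus strand) and ERF5 (chr5:19179881-19181182, plus strand) are arranged the same way, 6924 bases apart. The 1 annotated protein-coding gene between them, AT5G47229, is 156 bases long and on the minus strand, with 31 bases between it and the ERF5 start. It so lies within the ERF5 window printed above. The motif matches of ERF5, at 170, 151 and 106 bases before the ERF5 start, all lie inside AT5G47229. ERF98 (chr3:8289379-8290164) lies between ERF95, 776 bases away, and ERF1B, 5452 bases away. ERF11 (chr1:9955774-9956980) is 2668 bases from ERF12. ERF8 (chr1:19821337-19822399), ERF9 (chr5:17806397-17807541), ERF59 (chr1:1882907-1883992) and RAP2.6L (chr5:4271730-4274674) have no ERF gene of the lists used here within 20000 bases. RAP2.6L is the 1 member with an intron in the transcript used, and the other 9 members have a single exon.

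**Figure D2:**
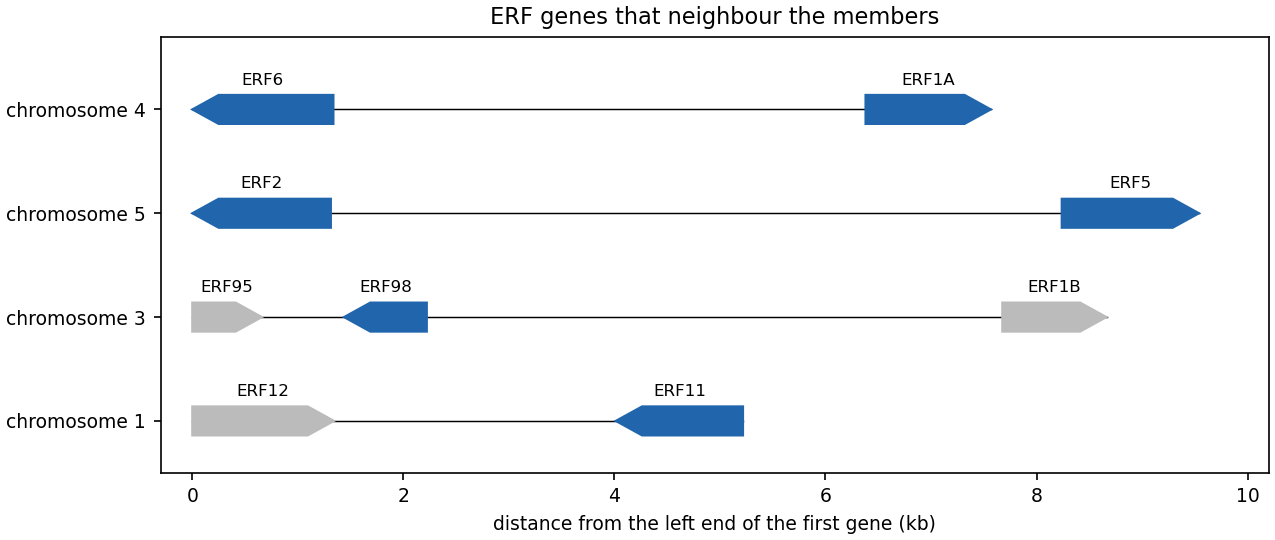
Genes (arrows, pointing along the strand) at 4 places where a member (blue) lies near another ERF gene (blue for members, grey for other ERF genes), drawn to scale with the distance from the left end of the first gene in kb. The ERF6 and ERF1A pair and the ERF2 and ERF5 pair are both divergent, and the 156-base gene next to ERF5 is not drawn.

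The proteins were compared by translating the annotated coding sequences. ERF1A and ERF2 (268 and 243 residues) were identical at 70.7% of 232 aligned residues, and ERF5 and ERF6 (300 and 282 residues) at 64.9% of 276. Each divergent pair thus joins 1 gene of the ERF1A and ERF2 kind with 1 of the ERF5 and ERF6 kind. As a share of the longer protein, which does not favour short alignments, ERF8 with ERF9 (43%), ERF8 with ERF11 (41.2%) and ERF9 with ERF11 (38.7%) came next, ahead of ERF2 with ERF59 (36.9%). Of aligned residues alone, ERF98 reached like values (53% of 132 with ERF2), against 54.1% of 159 for ERF8 and ERF9. These 3 and no other member carry the DLNxxP form of the EAR motif, 1 copy each near the end of the protein, at residue 177 of 185 in ERF8, 190 of 200 in ERF9 and 195 of 204 in ERF11. ERF98 is the shortest member, with 139 residues.

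**Figure D3:**
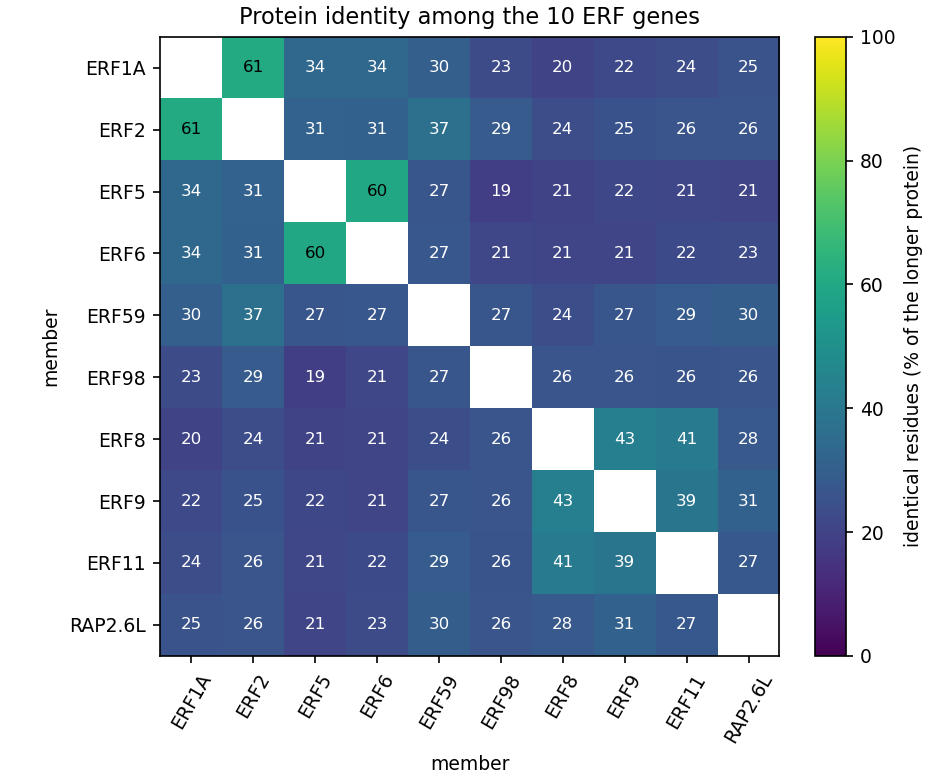
Identical residues as a percentage of the longer protein for each pair of the 10 members (rows and columns). ERF1A with ERF2 (61.2%) and ERF5 with ERF6 (59.7%) stand highest, followed by ERF8 with ERF9 (43%).

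Leaves on mannitol were set against control leaves to find transcripts that differ when osmotic stress is mild. Of the 10 members 4 passed, ERF98, ERF5, RAP2.6L and ERF59, where 9.07% of all genes passed. The median listed p of the members was 0.0201, against 0.459 over all genes, in the authors' deposited table. Both values over all genes include 7049 genes listed at the largest possible p, where no member stood. In whole leaves, a different number of cells of a type and a different amount of RNA per cell cannot be told apart.

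ERF98, which controls ascorbate synthesis under salt stress, had a listed p of 0 under mannitol in the authors' deposited table, as did 77 other genes. The order of a value listed at 0 among the smallest values has no meaning, and the level of ERF98 is not known here. Under NAA its listed p in the authors' deposited table was 0.317, a value shared with 999 other genes. Whether few reads lie behind either value was not tested. ERF5, the close relative of ERF6, had a listed p of 1.24e-05 in the authors' deposited table (adjusted p = 0.000396 by the Benjamini-Hochberg method). It ranked at percentile 3.13 of all genes, where 0 is the smallest p. RAP2.6L, known from shoot regeneration and waterlogging responses, had a listed p of 0.000145 in the authors' deposited table (adjusted p = 0.00317), and ERF59 one of 0.000394 (adjusted p = 0.00708). ERF59, also called ORA59, joins jasmonate and ethylene signals at defence genes.

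The other 6 members did not pass under mannitol. ERF2 (listed p = 0.0119, adjusted p = 0.105) and ERF11 (0.0283, adjusted p = 0.194) were under 0.05 before adjustment in the authors' deposited table, which makes 6 of 10 members, where 17.9% of all genes were. ERF8 had a listed p of 0.0766, ERF9 of 0.254, ERF6 of 0.287 and ERF1A of 0.622 in the authors' deposited table. ERF6 ranked at percentile 36.5 and its relative ERF5 at 3.13. Whether related members differ from each other was not tested, since a p-value has no size to compare.

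Leaves on NAA were set against control leaves to find transcripts that differ with added auxin. Here 2 of 10 members passed, ERF1A and ERF2, where 12.8% of all genes passed. That share is near the background. ERF1A, an activator that binds the GCC box, had a listed p of 2.15e-05 in the authors' deposited table (adjusted p = 0.000474) and ranked at percentile 4.54. ERF2, also an activator, had a listed p of 0.00578 in the authors' deposited table and passed narrowly (adjusted p = 0.046).

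The nearest member outside the threshold under NAA was ERF5, with a listed p of 0.00997 in the authors' deposited table (adjusted p = 0.0698). The repressor gene ERF9 (listed p = 0.0134), RAP2.6L (0.0195), ERF6 (0.0345) and ERF11 (0.0419) were also under 0.05 before adjustment in the authors' deposited table, with adjusted p-values of 0.0874, 0.116, 0.177 and 0.203. ERF59 (listed p = 0.133), ERF8 (0.192) and ERF98 (0.317) were not, in the authors' deposited table. The ERF98 value was listed identically, to the last digit, for 999 other genes, and 1290 genes in all lay within 1e-06 of what a normal z-score of 1 gives in a two-sided test. In all 7 members were under 0.05 before adjustment (21.8% of all genes were) and 2 after it, so the NAA count depends on the adjustment.

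With both compounds 7 of 10 members passed, where 26.3% of all genes passed. They were RAP2.6L, ERF9, ERF59, ERF8, ERF5, ERF2 and ERF1A. RAP2.6L had the smallest value, a listed p of 2.22e-16 in the authors' deposited table (adjusted p = 9.8e-15). That number is the smallest relative step of double-precision arithmetic and was shared by 20 other genes, and 423 genes were listed at 0, so its order among the smallest values has no meaning.

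The EAR repressor genes ERF9 and ERF8 passed with both compounds and not with either compound alone. Of all genes 26.3% passed with both compounds, and 20.9% passed in exactly 1 of the comparisons, whichever it was. ERF12 and WRKY48, which are not members, also passed with both compounds only. ERF9 had a listed p of 6.92e-07 in the authors' deposited table (adjusted p = 8.83e-06) and ERF8 one of 7.1e-05 (adjusted p = 0.000571). The third EAR member, ERF11, did not pass (listed p = 0.134 in the authors' deposited table, adjusted p = 0.32). Whether the combined treatment differed from a single one was not tested in the deposited table, so passing in 1 comparison and not in another does not show a difference between treatments.

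ERF59 had a listed p of 5.1e-06 with both compounds in the authors' deposited table (adjusted p = 5.41e-05), ERF5 one of 0.000498 (0.00315), ERF2 one of 0.00155 (0.00834) and ERF1A one of 0.0083 (0.0342). ERF98, at 0 under mannitol, had a listed p of 0.0204 with both compounds in the authors' deposited table and did not pass (adjusted p = 0.0719). ERF6 had 0.0241 in the authors' deposited table and did not pass either (adjusted p = 0.0825). Before adjustment 9 of 10 members were under 0.05, all but ERF11, where 33.9% of all genes were.

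**Figure D4:**
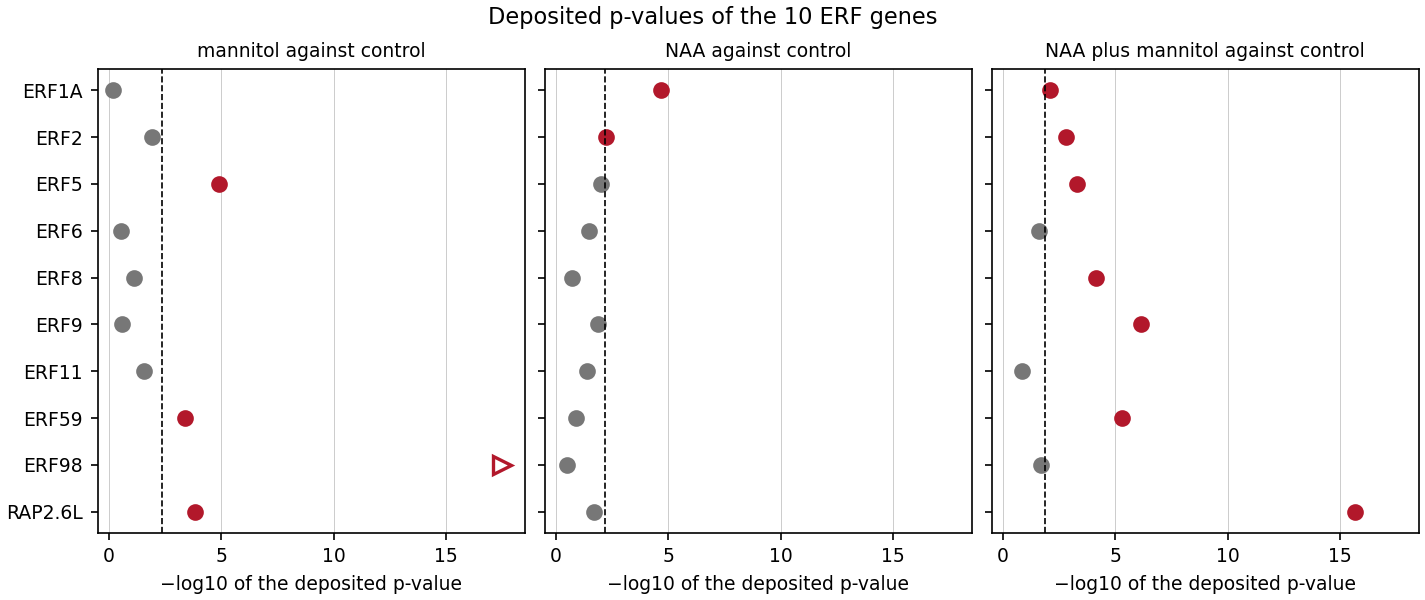
The −log10 of the deposited p-value (horizontal axis) for each of the 10 members (rows) in 3 comparisons with control (panels). Red points passed, grey points did not, the dashed line is the largest listed p that passed (0.00453 for mannitol, 0.00636 for NAA and 0.0131 for both), and the open triangle is ERF98, listed at 0 and drawn at an arbitrary place.

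Over the 3 comparisons, 5 members passed in 2 of them, 3 members in 1, and ERF6 and ERF11 in 0. Of all genes 9.18% passed in 2, 20.9% in 1, 67% in 0 and 2.99% in all 3. No member passed in all 3. The smallest of a member's 3 listed p-values was the one with both compounds for 6 members (ERF2, ERF6, ERF8, ERF9, ERF59 and RAP2.6L), with mannitol for 3 (ERF5, ERF11 and ERF98) and with NAA for 1 (ERF1A). Among the 21194 genes with a single smallest p, these shares were 52.7% (both), 19.1% (mannitol) and 28.2% (NAA), so the members' share for the combination is near that of all genes. ERF6, the best known member of this network, was under 0.05 before adjustment in 2 of the 3 comparisons. All 10 members had a listed p under 1 in each comparison, whereas 7049, 7272 and 6804 of all genes were listed at 1 under mannitol, NAA and both. Those genes are counted in the shares passing and the median p-values given for all genes.

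The other network factors are STZ, ZAT6, MYB51 and 7 WRKY genes. Of these 10, 6 passed under mannitol, 2 under NAA and 7 under the combination, against 4, 2 and 7 of the 10 ERF genes. The shares over all genes were 9.07%, 12.8% and 26.3% in the same order. WRKY15 (adjusted p = 6.08e-11), WRKY30 (1.53e-05), MYB51 (2.97e-05) and ZAT6 (7.11e-05) led them under mannitol in the authors' deposited table after adjustment. Under NAA they were WRKY40 (adjusted p = 3.31e-20) and WRKY33 (0.0236) in the authors' deposited table. The median listed p in the authors' deposited table was 0.0201 for the 10 ERF genes and 0.0008 for the 10 other factors under mannitol, against 0.459 for all genes. Under NAA it was 0.027 for the ERF genes, 0.153 for the other factors and 0.406 for all genes in the authors' deposited table. With both compounds the medians were 0.00102, 0.00134 and 0.293 in the same order, from the authors' deposited table.

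The lists also held other ERF genes of groups VIII and IX, to which all members but RAP2.6L belong. Of 5 other group VIII genes (the group of ERF8, ERF9 and ERF11) 0 passed under mannitol, 2 under NAA and 3 under the combination. Before adjustment 1 of the 5 was under 0.05 with mannitol, where 17.9% of all genes were. After adjustment 9.07% (mannitol), 12.8% (NAA) and 26.3% (both) of all genes passed. ERF3, an EAR repressor gene, was listed at 0 with both compounds in the authors' deposited table. ERF4, another repressor gene, had adjusted p-values of 0.0222 (NAA) and 0.00189 (both) and ERF12, the neighbour of ERF11, one of 0.0369 (both) from the authors' deposited table. Of 8 other group IX genes 1 passed under mannitol, ERF1B, and 0 under NAA or both after Benjamini-Hochberg adjustment in Python. Before adjustment 0 of the 8 were under 0.05 with NAA and 3 with both compounds, where 21.8% and 33.9% of all genes were.

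ERF1B, the neighbour of ERF98 and a well-known ethylene response gene, had a listed p of 0.00164 under mannitol in the authors' deposited table (adjusted p = 0.0224). Under NAA its listed p in that table was 0.317, the value that ERF98 and many other genes share. Whether few reads lie behind the ERF1B values was not tested. ERF95, the gene on the other side of ERF98, was listed at 1 in all 3 comparisons in the authors' deposited table, as were ERF14 and ERF96. A listed p of 1 gives no information on whether a gene was detected.

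**Figure D5:**
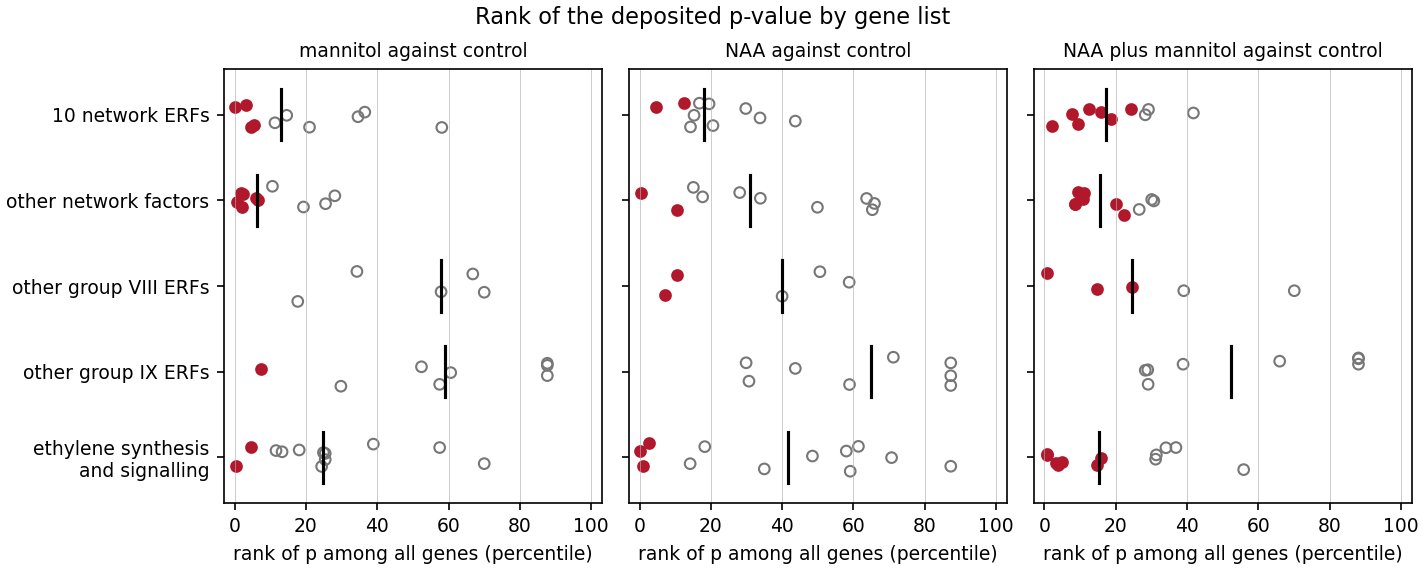
Rank of each gene's deposited p among all 28642 genes (horizontal axis, percentile, 0 for the smallest p) for the 10 ERF members and 4 other lists (rows) in 3 comparisons (panels). Red points passed, open points did not, vertical bars are medians and the scatter within a row is arbitrary. The median of the members was 12.9 (mannitol), 18.2 (NAA) and 17.2 (both). In the same order it was 6.36, 31 and 15.6 for the other network factors. For the ethylene genes it was 24.7, 41.7 and 15.4, and for other group VIII ERF genes 57.9, 40 and 24.6. For other group IX ERF genes, 3 of 8 of them listed at 1, it was 59, 65.1 and 52.5.

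Upstream of the ERF genes, ethylene synthesis and signalling genes passed in 2 (mannitol), 3 (NAA) and 7 (both) of 12 cases. Over all genes the shares that passed were 9.07%, 12.8% and 26.3% in the same order. CTR1, the kinase that holds the pathway off, passed under mannitol (adjusted p = 7.32e-13) and NAA (7.96e-06) and was listed at 0 with both compounds in the authors' deposited table. EIN2, which passes the signal to the nucleus, passed under mannitol (adjusted p = 0.00282), was listed at 0 under NAA and passed with both compounds (1.96e-11) in the authors' deposited table. EIN3, a transcription factor of the pathway, passed under NAA (adjusted p = 8.45e-10) and was listed at 0 with both compounds in the authors' deposited table. It did not pass under mannitol (adjusted p = 0.482 from the authors' deposited table). ACS6, which makes the ethylene precursor, did not pass under mannitol (adjusted p = 0.468), NAA (1) or both (0.201) in the authors' deposited table.

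The kinase gene MPK6 had adjusted p-values of 0.0529 (mannitol), 0.203 (NAA) and 3.38e-08 (both) from the authors' deposited table. MPK3 passed under NAA (adjusted p = 0.000532) and not under mannitol (0.814) or both (0.338) in the authors' deposited table. GA2OX6, the target of ERF6, passed under mannitol (adjusted p = 0.00839) and both compounds (0.00737) and not under NAA (1) in the authors' deposited table, while ERF6 itself passed in none. Of the DELLA genes, GAI passed under NAA (adjusted p = 0.00444) and not under mannitol (1) or both (0.74), and RGA had 0.642 (mannitol), 0.0795 (NAA) and 0.877 (both) in the authors' deposited table. PDF1.2A, a defensin gene activated by ERF59, passed under mannitol (adjusted p = 0.0126) and not with NAA (0.699) or both (0.355) in the authors' deposited table. CHI-B, a chitinase gene with GCC boxes in its promoter, passed under NAA (adjusted p = 0.0245 from the authors' deposited table). It did not pass under mannitol (adjusted p = 0.0695 from the authors' deposited table) or with both compounds.

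Genes that mark other cell types or handling were read the same way, beside shares of all genes of 9.07% (mannitol), 12.8% (NAA) and 26.3% (both). Of 4 touch and rapid stress genes (TCH2, TCH4, ZAT12 and CBF2) 0 passed under mannitol, 1 under NAA (TCH2) and 2 with both compounds (TCH2 and ZAT12). Of the root markers PLT1 and PYK10, PYK10 was listed at 0 under mannitol and passed with both compounds (adjusted p = 0.000317) in the authors' deposited table. Shoot meristem markers passed in 0 of 3 cases and phloem markers in 0 of 2 in each comparison, and stomatal lineage markers in 1, 1 and 2 of 3 under mannitol, NAA and both. Trichome markers passed in 0, 0 and 1 of 2 cases and mesophyll markers in 1, 0 and 0 of 2. Before adjustment, the marker lists with 0 passing had at most 2 members under 0.05 in a comparison. With both compounds these were 2 of the 2 mesophyll markers. The part of these markers in the ERF values was not tested, and p-values give no level for any of them.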

How the data were processed

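RNA from 12 samples (4 groups of 3 biological replicates) was made into libraries with a stranded mRNA kit, as the labels' protocols state, and sequenced. The submitters' processing notes name TAIR10 as genome build. No source used here gives the aligner, the counting or the test behind the p-values. The deposited p-values were used as listed, 1 for each gene and comparison, per the file headers. The 24 library columns were not used, because their headers match no sample label, so no test on counts was run and the p-values alone were used. Depth and its precision are not analysed here. The members, the gene lists and all tests were chosen with earlier results of these data known. Benjamini-Hochberg adjustment over all 28642 genes (NumPy 2.4.6, pandas 2.3.3, Python 3.11.15) was tested on simulated data. No gene was filtered out. A rank percentile gives ties their mean rank. All 10 members are named in every comparison. Of other lists, up to 4 passing genes with the smallest adjusted p, plus ACS6, MPK6, GA2OX6, RGA and GAI, could be named. Genes named beyond that, among them ERF95, ERF14, ERF96 and PYK10, were chosen after their values were seen.

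Positions, promoters and coding sequences come from RefSeq's TAIR10.1 (the submitters name TAIR10), which matched 28009 of the 28642 identifiers. The deposited files hold no coordinates. Proteins were aligned globally (Biopython 1.88, BLOSUM62, gap penalties 11 and 1, end gaps free).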

Additional observations from a re-analysis of the deposited data

How the results depend on the processing

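Without adjustment, at a p under 0.05, 7 members passed under NAA (2 with adjustment), 6 under mannitol and 9 with both compounds, where 5129 (17.9%, mannitol), 6243 (21.8%, NAA) and 9717 (33.9%, both) of all genes did. Bonferroni adjustment left 1 member under mannitol, 0 under NAA and 2 under the combination, and 698, 948 and 2423 of all genes, by construction of a stricter limit. The members left were ERF98 under mannitol, and ERF9 and RAP2.6L with both compounds. An unadjusted 0.01, Benjamini-Hochberg adjustment over genes with a p under 1, and leaving out genes listed at 0 kept each count of members and of genes within 1.5 times, though the last also drops ERF98 and so leaves 3 members under mannitol. Of 30 member values, the unadjusted 0.05 let 9 more pass, the unadjusted 0.01 let 1 more pass (ERF5 under NAA), and Bonferroni adjustment lost 10. Settings that need library columns (another count test, another scaling, no filter, fewer groups in the fit, leaving out each library) were not run. No paired analysis was possible because no column of a single library could be tied to a replicate. What depth limits is not analysed here. If the deposited values were already adjusted, they were adjusted a second time, and the unadjusted counts apply. Within 1e-06 of what a normal z-score of 1 gives in an unadjusted two-sided test, 1235 (mannitol), 1290 (NAA) and 1218 (both) genes were listed. Whether the listed values had been adjusted was not tested.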
